A study of Homo sapiens with 6 samples.

Results

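NRF2 (gene NFE2L2) is the transcription factor of the antioxidant response, and the 8 genes described here, AKR1B10, AKR1C1, NQO1, GCLM, GCLC, HMOX1, SLC7A11 and SRXN1, are among its textbook targets. They were examined in A549, an established human line from a lung adenocarcinoma, through the accessible chromatin around their start sites. The members were all DNase-seq peaks within 100 kb of the hg19 start positions of these genes in 6 deposited peak lists. Peaks sharing at least 1 bp across lists were merged, which gave 104 regions of 81216 in the whole series.

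Cells had received 100 nM dexamethasone, a synthetic agonist of the glucocorticoid receptor, or 0.02% ethanol as vehicle, for 1 h. There were 3 libraries per treatment, numbered 1 to 3, all from the same line. In DNase-seq, open chromatin is cut by DNase I and the ends of the cut fragments are sequenced. The dexamethasone lists held 58360, 60646 and 58677 peaks and the ethanol lists 58281, 60453 and 61344. No read counts are in the files, so the depth is unknown, and a region without a peak may still be open below the caller's threshold. The labels do not state separate cultures for the libraries, and p-values measure the spread between these libraries only, which may be technical. Neither RNA, NRF2 binding nor the KEAP1 sequence was measured in these files, so the label NRF2 target rests on background knowledge and could not be checked.

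In unstressed cells KEAP1, an adaptor of a ubiquitin ligase, holds NRF2 and directs its degradation. Oxidants and electrophiles modify KEAP1, and NRF2 then pairs with small MAF proteins on antioxidant response elements. A549 cells are known to carry a loss-of-function KEAP1 mutation, and NRF2 is known to be constitutively active in the line. Its activity was not measured here in the vehicle condition or in the treated one. The targets cover cystine import (SLC7A11), glutathione synthesis (GCLC and GCLM), thiol repair (SRXN1), quinone reduction (NQO1), haem breakdown (HMOX1) and carbonyl reduction (AKR1B10 and AKR1C1).

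The promoter sequences are shown because the antioxidant response element is the sequence through which NRF2 acts. RefSeq windows of 250 bases before to 50 after the gene start (GRCh38.p14) were matched for 5 of the 8 genes: AKR1C1, NQO1, GCLM, GCLC and SRXN1. Windows for AKR1B10, HMOX1 and SLC7A11 were not used here. Both strands were searched for the element core TGACNNNGC, for a looser core TGANNNNGC that contains it, for the AP-1 site TGANTCA and for the glucocorticoid receptor hexamer AGAACA. Of the 5 windows, the strict core was found in that of GCLM alone, as TGACTAAGC on the strand opposite to the gene, and 13.3% of 35116 RefSeq windows held it. The looser core was in GCLM, AKR1C1 and NQO1, that is 3 of 5, against 41.8% of all windows. Neither the AP-1 site nor the receptor hexamer was in any of the 5 windows, against 7.71% and 14.8% of all windows. Sequence more than 250 bases before the start was not searched, so elements or sites there would have been missed in every gene. The upstream 250 bases of the 3 genes with a match follow, each 5′ to 3′ on the gene's strand, with matches to the looser core in capitals. The second match in GCLM, TGAGGGAGC, starts 8 bases before the gene start and ends on the start base. That base is not among those shown, so the match is left in lower case.
GCLM, chr1:93909431-93909680, minus strand: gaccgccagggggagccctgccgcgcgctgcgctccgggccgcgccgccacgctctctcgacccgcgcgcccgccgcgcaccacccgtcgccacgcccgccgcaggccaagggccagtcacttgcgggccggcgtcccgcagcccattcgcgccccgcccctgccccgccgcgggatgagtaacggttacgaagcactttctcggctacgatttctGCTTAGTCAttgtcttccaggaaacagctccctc
AKR1C1, chr10:4963165-4963414, plus strand: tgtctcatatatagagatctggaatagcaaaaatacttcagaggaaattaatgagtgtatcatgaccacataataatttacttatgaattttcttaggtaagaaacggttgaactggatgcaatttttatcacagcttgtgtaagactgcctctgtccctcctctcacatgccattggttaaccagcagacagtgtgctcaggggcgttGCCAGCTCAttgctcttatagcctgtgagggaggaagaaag
NQO1, chr16:69726561-69726810, minus strand: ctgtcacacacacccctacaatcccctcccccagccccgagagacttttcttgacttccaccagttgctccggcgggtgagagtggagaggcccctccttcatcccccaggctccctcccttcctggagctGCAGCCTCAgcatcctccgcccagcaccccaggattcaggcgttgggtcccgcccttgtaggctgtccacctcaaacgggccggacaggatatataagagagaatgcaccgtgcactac

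The strict core in GCLM begins 34 bases before the start, and the looser matches in AKR1C1 and NQO1 begin 41 and 119 bases before it. The AKR1C1 window had 41% G and C, those of NQO1 and GCLC 62.7% each, GCLM 71.7% and SRXN1 80.0%, against a median of 58.7% over all windows. The peak lists use hg19, so peaks were not placed on these GRCh38 letters. A match is a run of letters and not a measured binding site.

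The first question was whether the starts of these genes lay in open chromatin. All 8 gene starts were covered by a region with a peak in all 6 libraries, 3 of 3 with dexamethasone and 3 of 3 with ethanol. Over all merged regions 49.2% were called in all 6 libraries. That is a share of regions that hold a peak, not of gene starts. No share over other gene starts was computed, so open starts are not read as particular to these genes. The strength of a peak is given here as the percentile of its −log10 q within its own list, where 100 is the strongest, and as the fold enrichment over the caller's background that the authors deposited. Both belong to their own list. They describe and order peaks within a list, and where they are set side by side between treatments the values are a description without a test, from lists of unequal length.

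SRXN1, which encodes sulfiredoxin, the enzyme that reactivates overoxidised peroxiredoxins, had the strongest start region. It lay on chromosome 20 at 633713 to 634370, and its percentiles were 96.7, 95.9 and 94.1 with dexamethasone and 95.3, 96.2 and 94.9 with ethanol. Its ranks were 1899, 2517 and 3447 with dexamethasone and 2743, 2286 and 3141 with ethanol (rank 1 is the strongest peak of a list). The 6 values lay close together and the treatments overlapped.

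GCLM, the modifier subunit of glutamate-cysteine ligase, had a start region on chromosome 1 at 94374803 to 94375647. It reached percentiles of 88.9, 93.6 and 91.7 with dexamethasone and 88.3, 93.8 and 93.4 with ethanol, and the lowest value of either treatment came from its library 1. Its fold enrichment was the highest of the 8 starts, 13.98, 15.7 and 14.4 with dexamethasone and 13.6, 16.1 and 14.7 with ethanol.

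NQO1, a quinone reductase that is widely used as a readout of NRF2 activity, had a start region on chromosome 16 at 69760218 to 69761086, the widest of the 8 at 869 bp. Percentiles were 94.5, 89.8 and 91.9 with dexamethasone and 83.9, 94.5 and 90.0 with ethanol. Ethanol library 1 was the low one, and the others of both treatments were intermingled. The start region of AKR1B10, an aldo-keto reductase that reduces aldehydes and retinals, lay on chromosome 7 at 134212007 to 134212398. It had percentiles of 88.9, 84.1 and 94.2 with dexamethasone and 90.0, 85.4 and 86.3 with ethanol, again overlapping.

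The starts of GCLC, HMOX1 and AKR1C1 formed a middle group. GCLC, the catalytic subunit of glutamate-cysteine ligase, had percentiles of 70.9, 71.3 and 75.2 with dexamethasone and 74.5, 69.2 and 78.0 with ethanol in a region on chromosome 6 at 53409379 to 53410113. HMOX1, which degrades haem to biliverdin, iron and carbon monoxide, had 57.9, 80.3 and 69.1 with dexamethasone and 77.2, 69.7 and 61.2 with ethanol on chromosome 22 at 35776859 to 35777310. That region varied widely within each treatment, and its ranks ran from 11924 in dexamethasone library 2 to 24576 in dexamethasone library 1. AKR1C1, a reductase of steroids and xenobiotic carbonyls, had 73.9, 66.3 and 71.8 with dexamethasone and 69.2, 61.9 and 72.1 with ethanol on chromosome 10 at 5005234 to 5005729.

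SLC7A11, the transport subunit of the cystine/glutamate antiporter, had the weakest and most variable start region, on chromosome 4 at 139163379 to 139163850. Its percentiles were 61.4, 37.9 and 20.8 with dexamethasone and 35.3, 47.3 and 42.8 with ethanol. The highest and the lowest of these 6 values were both from dexamethasone libraries, with the ethanol values between them.

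**Figure D1:**
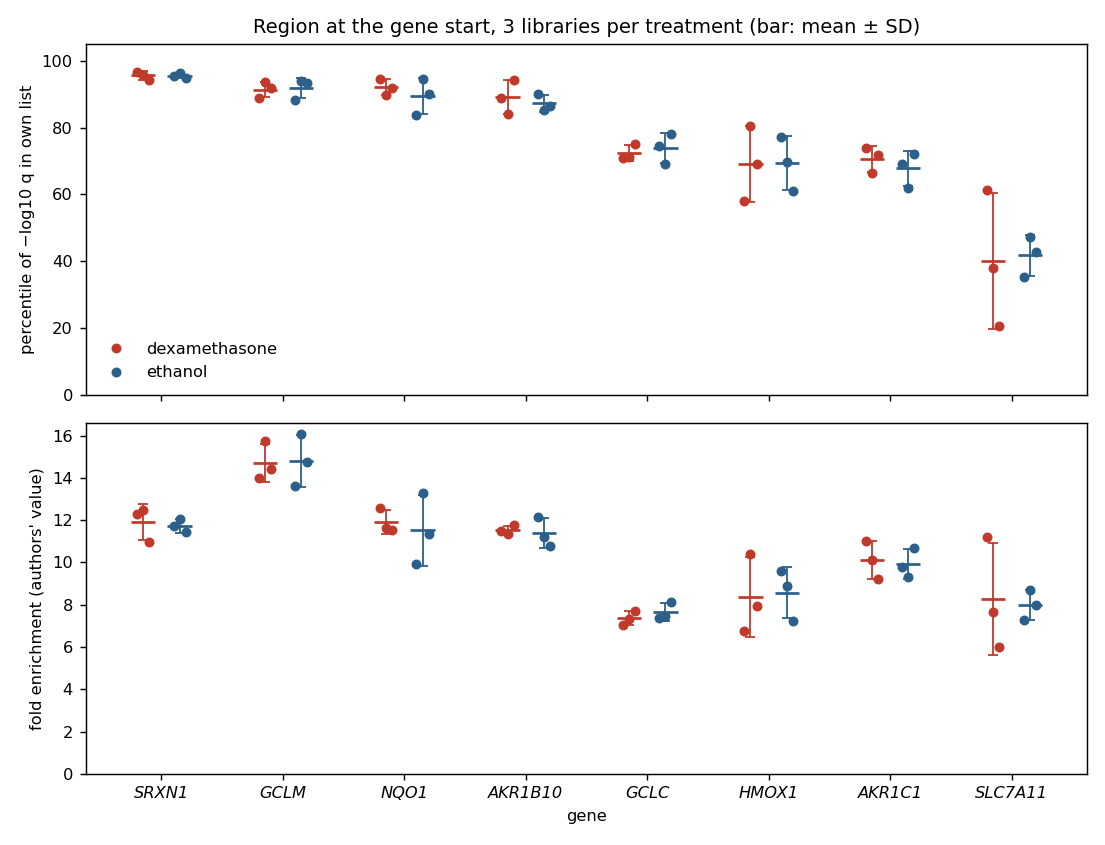
Percentile of −log10 q within the own list (upper axis) and the authors' fold enrichment (lower axis) of the region at each gene start, genes in the order of mean percentile, with 3 dexamethasone points left of 3 ethanol points and mean ± SD. SRXN1 (mean percentile 95.5) stands at the left and SLC7A11 (40.9) at the right, and the treatments overlap at all 8 starts.

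Ordered by mean percentile over the 6 libraries, the starts ran SRXN1 (95.5 ± 0.95, SD, n = 6), GCLM (91.6 ± 2.5), NQO1 (90.8 ± 4.0), AKR1B10 (88.2 ± 3.7), GCLC (73.2 ± 3.3), HMOX1 (69.2 ± 8.7), AKR1C1 (69.2 ± 4.5) and SLC7A11 (40.9 ± 13.5). SRXN1 exceeded GCLM, AKR1B10 exceeded GCLC and AKR1C1 exceeded SLC7A11 in 6 of 6 libraries. The last of these steps was the largest of the 7 between neighbours, 28.3 ± 14.1 points (SD, n = 6). The other neighbours did not separate beyond their spread: GCLM exceeded NQO1 in 3 of 6 libraries, NQO1 exceeded AKR1B10 in 4, GCLC exceeded HMOX1 in 3 and HMOX1 exceeded AKR1C1 in 3. The order by fold differed from this. SLC7A11 averaged 8.12 ± 1.75-fold and GCLC 7.50 ± 0.38-fold (SD, n = 6), although the percentile of GCLC was higher.

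The summits of the start peaks were placed against the hg19 gene start. In 4 genes every summit lay upstream of it, by 93 to 198 bases in GCLM, 60 to 160 in SRXN1, 104 to 159 in AKR1B10 and 14 to 142 in SLC7A11. AKR1C1 and NQO1 had every summit downstream, by 92 to 117 and by 30 to 60 bases. GCLC summits ran from 42 bases upstream to 11 downstream and HMOX1 summits from 17 upstream to 18 downstream. Across the 6 libraries the summit of one gene moved by 25 bases (AKR1C1) to 128 bases (SLC7A11). The motif distances given earlier were counted from GRCh38 RefSeq starts, which may differ from these hg19 starts. Motif and summit distances are therefore not to be combined.

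The second question was how much further open chromatin surrounded each gene. AKR1B10 had 23 regions within 100 kb, AKR1C1 20, SRXN1 16, HMOX1 14, GCLM 11, GCLC 9, NQO1 8 and SLC7A11 3. Around the 39934 regions of the series that were called in all 6 libraries, the median number of regions within 100 kb was 12. AKR1B10 lay above 88.9% of those regions in this respect, and SLC7A11 above 2.83%. Called in all 6 libraries were 15 of 23 regions at AKR1B10, 8 of 16 at SRXN1, 8 of 14 at HMOX1, 7 of 20 at AKR1C1, 6 of 11 at GCLM, 5 of 8 at NQO1, 4 of 9 at GCLC and 1 of 3 at SLC7A11. Both other SLC7A11 regions were downstream of the start, 20.1 kb from it at 139143323 to 139143551 (2 of 3 ethanol libraries) and 6.6 kb from it at 139156721 to 139157148 (1 of 3 dexamethasone and 2 of 3 ethanol libraries). AKR1B10 also had close regions with partial calls, 7.3 kb upstream at 134204927 to 134205184 (2 of 3 libraries of each treatment) and 5.9 kb downstream at 134218018 to 134218543 (2 of 3 dexamethasone and 1 of 3 ethanol libraries), with mean percentiles of 8.46 and 15.8.

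**Figure D2:**
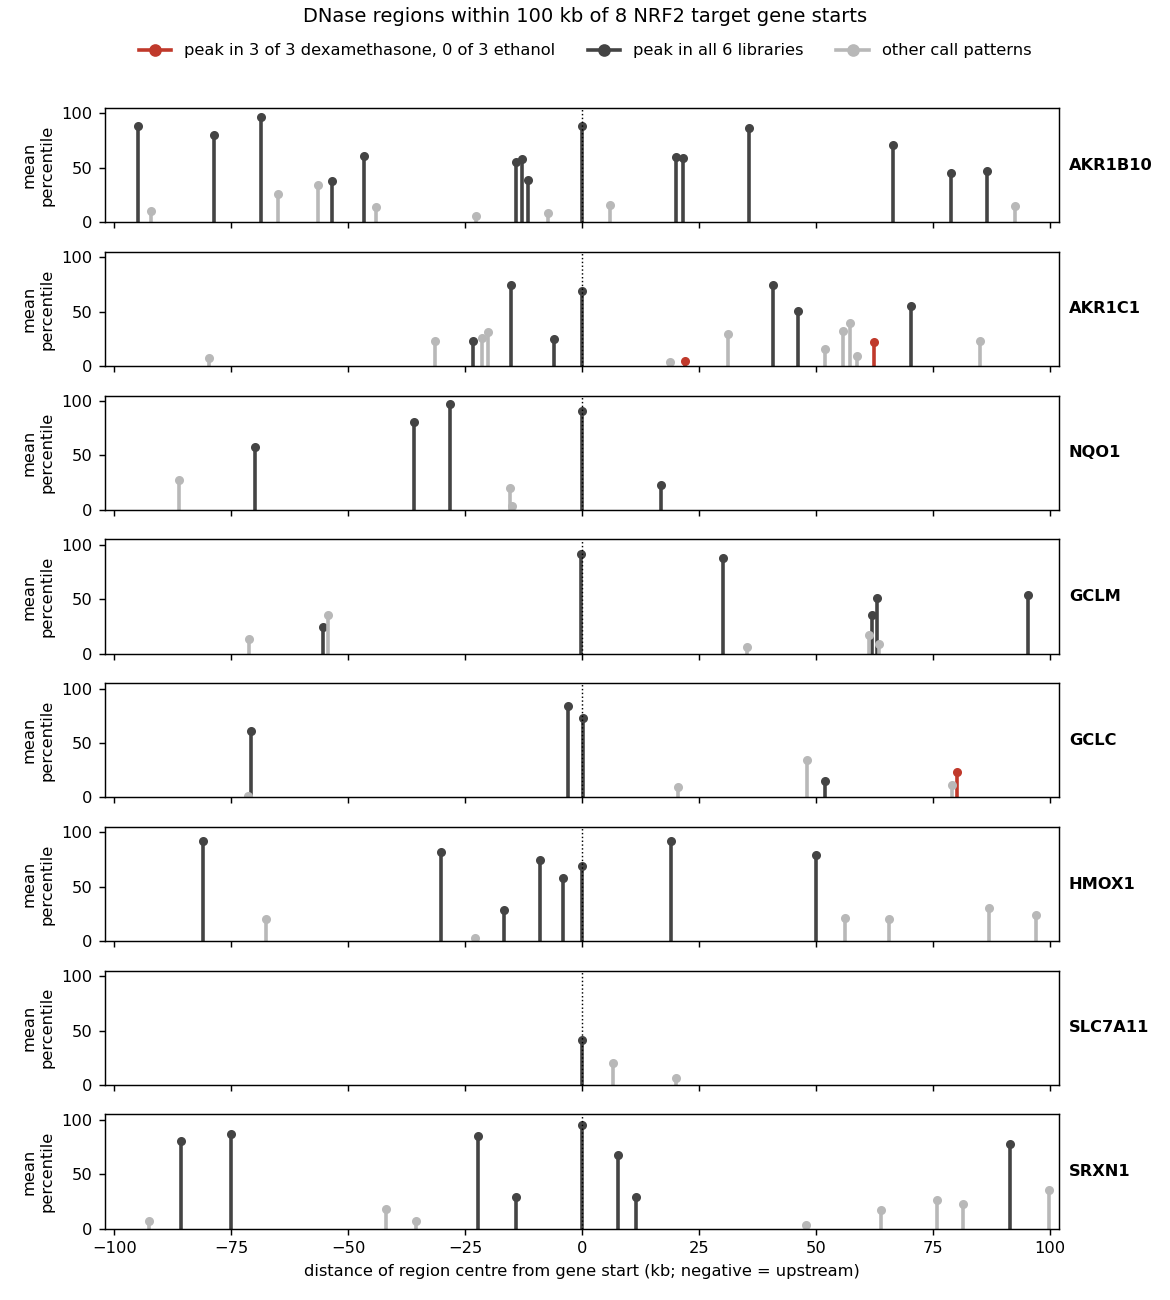
Distance of each of the 104 merged regions from the gene start in kb (negative is upstream on the gene's strand) against its mean percentile of −log10 q over the libraries that called it, 1 row per gene. Dark bars were called in all 6 libraries, red bars in every dexamethasone library but no ethanol library (3 regions), and grey bars otherwise; the AKR1B10 row is the fullest with 23 regions and the SLC7A11 row holds 3.

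By mean percentile the start region was the strongest of its window in GCLM, SLC7A11 and SRXN1 and was surpassed elsewhere. By fold, regions 75.0 and 85.8 kb upstream of SRXN1 each exceeded its start in 3 of 6 libraries. At NQO1 a region 28.3 kb upstream, on chromosome 16 at 69788480 to 69789126, had percentiles of 97.9, 98.4 and 92.9 with dexamethasone and 97.1, 97.8 and 97.9 with ethanol. It stood above the NQO1 start in 6 of 6 libraries by percentile and by fold, and its fold of 17.6 ± 1.4 (SD, n = 6) compares with 11.7 ± 1.1 at the start. NOB1 and then WWP2 are the next protein-coding genes on that side of NQO1 in RefSeq order. Whether this region lies at the start of one of them was not tested. At AKR1B10 a region 68.7 kb upstream, on chromosome 7 at 134143070 to 134144190, had a mean percentile of 96.9 and exceeded the start in 6 of 6 libraries by percentile but in 2 of 6 by fold. AKR1B1, a relative of AKR1B10, is the next protein-coding gene on that side in RefSeq order, but no hg19 annotation was used to place its start.

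GCLC had a region closer than any other member's, 3.0 kb upstream of the start on chromosome 6 at 53412596 to 53413238. Its percentiles were 85.9, 87.0 and 77.3 with dexamethasone and 84.7, 86.6 and 85.0 with ethanol. Dexamethasone library 3 was the low one and the treatments overlapped. This upstream region exceeded the GCLC start in 6 of 6 libraries by percentile and by fold, with 9.94 ± 1.08-fold against 7.50 ± 0.38-fold at the start (SD, n = 6). A distal antioxidant response element upstream of human GCLC is textbook knowledge, and whether it lies in this region was not tested.

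HMOX1 had a row of upstream regions called in all 6 libraries, 4.0, 9.1, 16.7 and 30.1 kb from the start. Distal enhancers upstream of HMOX1 that bind NRF2 and the repressor BACH1 are well known, first from the mouse gene. The region 9.1 kb upstream, on chromosome 22 at 35767604 to 35768320, had percentiles of 80.9, 75.9 and 62.3 with dexamethasone and 78.8, 73.3 and 78.5 with ethanol. Its fold exceeded that of the HMOX1 start in 6 of 6 libraries and its percentile in 4. The region 4.0 kb upstream, at 35772867 to 35773268, was weaker, with 66.5, 55.6 and 56.1 with dexamethasone and 59.6, 48.6 and 59.8 with ethanol, and it exceeded the start in 1 of 6 libraries. The region 30.1 kb upstream, at 35746739 to 35747276, was the strongest of this row, with a mean percentile of 82.4. It exceeded the start in 6 of 6 libraries by percentile and by fold. The strongest regions of the whole HMOX1 window were 81.0 kb upstream at 35695623 to 35696403 (mean percentile 92.0) and 19.0 kb downstream at 35795791 to 35796238 (91.7). TOM1 and MCM5 are the flanking protein-coding genes in RefSeq order. Whether these regions lie at their starts was not tested.

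**Figure D3:**
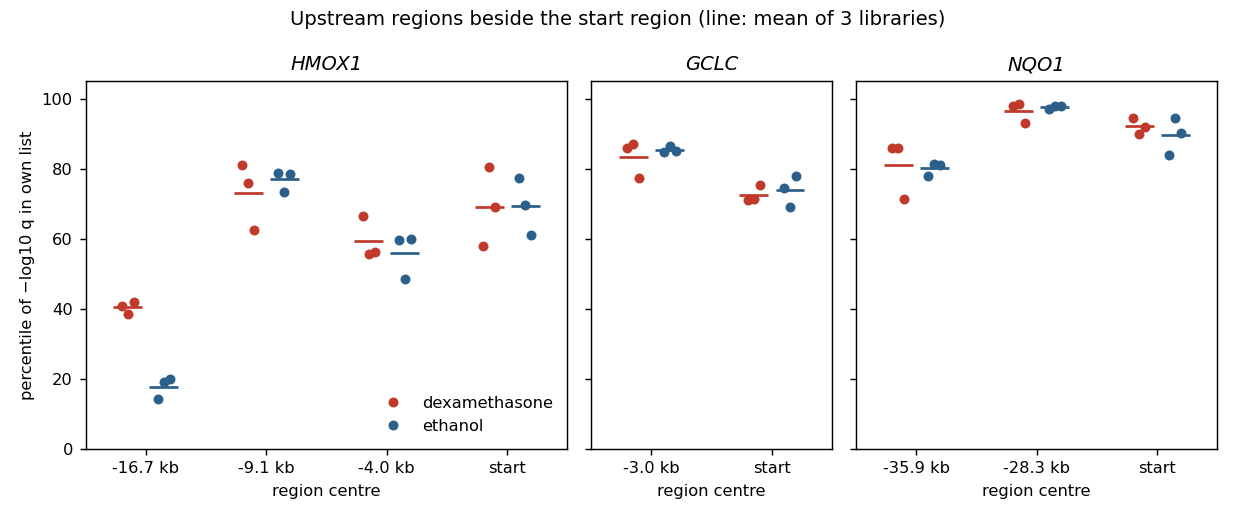
Percentile of −log10 q within the own list for selected regions upstream of HMOX1, GCLC and NQO1 beside the region at the start. Drawn are the regions 16.7, 9.1 and 4.0 kb (HMOX1), 3.0 kb (GCLC) and 35.9 and 28.3 kb (NQO1) upstream. Other upstream regions, among them those 81.0 and 30.1 kb from HMOX1, are not drawn. In each, 3 dexamethasone points stand left of 3 ethanol points, with their mean as a line. The treatments separate at the HMOX1 region 16.7 kb upstream (38.5 to 42.0 with dexamethasone, 14.1 to 20.0 with ethanol) and overlap in the other regions drawn. NOB1 and WWP2 follow upstream of NQO1 in RefSeq order, and their starts were not placed.

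AKR1C1 lies in a cluster of closely related genes, followed by AKR1C2 and AKR1C3 in RefSeq order, and AKR1B10 is followed by its close relative AKR1B15. How reads that fit several copies were treated is not given in the sources used here, so strengths in these 2 windows are less certain than elsewhere. The strongest AKR1C1 regions were 15.3 kb upstream, on chromosome 10 at 4989909 to 4990302, and 40.7 kb downstream, at 5045889 to 5046464, with mean percentiles of 74.5 and 74.4. They exceeded the start in 5 and 6 of 6 libraries by percentile, and each in 4 of 6 by fold. Whether the downstream one lies at the start of AKR1C2 was not tested. A weaker region 6.0 kb upstream of AKR1C1, at 4999154 to 4999682, was called in all 6 libraries with widely spread percentiles of 46.2, 7.08 and 6.10 with dexamethasone and 36.3, 27.0 and 24.3 with ethanol. The highest and the lowest values there both came from dexamethasone libraries. In the GCLM window the next strongest region by percentile lay 30.2 kb downstream, at 94344552 to 94344984, with a mean percentile of 87.4. By fold it exceeded the GCLM start in 4 of 6 libraries, with 15.1 ± 1.2-fold against 14.8 ± 0.97-fold at the start (SD, n = 6). DNTTIP2 is the next protein-coding gene on that side of GCLM in RefSeq order, and whether the region lies at its start was not tested. SRXN1 had regions 7.7 kb downstream at 626111 to 626543 (mean percentile 67.4) and 22.3 kb upstream at 656112 to 656566 (84.9). SCRT2, SLC52A3 and FAM110A follow upstream of SRXN1 in RefSeq order. Whether the upstream regions lie at their starts was not tested.

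The main comparison of the study, dexamethasone against ethanol, found no difference in the number of called peaks beyond the spread between libraries, and 54 of the 104 regions (51.9%) had a peak in all 6. The 8 windows held 77, 80 and 76 called peaks with dexamethasone and 79, 77 and 79 with ethanol. The means were 77.7 ± 2.1 and 78.3 ± 1.2 (SD, n = 3 each), a difference of −0.67 peaks that was within the spread (exact two-sided permutation p = 0.9, smallest possible 0.1). Its sign turned to 0.67 within 50 kb and to 0.17 without dexamethasone replicate 3. By gene the numbers overlapped or touched as well, with 11, 12 and 10 at HMOX1 with dexamethasone and 10, 14 and 13 with ethanol, and 14, 14 and 12 at AKR1C1 with dexamethasone and 13, 12 and 11 with ethanol. SLC7A11 had 2, 1 and 1 with dexamethasone and 3, 1 and 3 with ethanol.

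**Figure D4:**
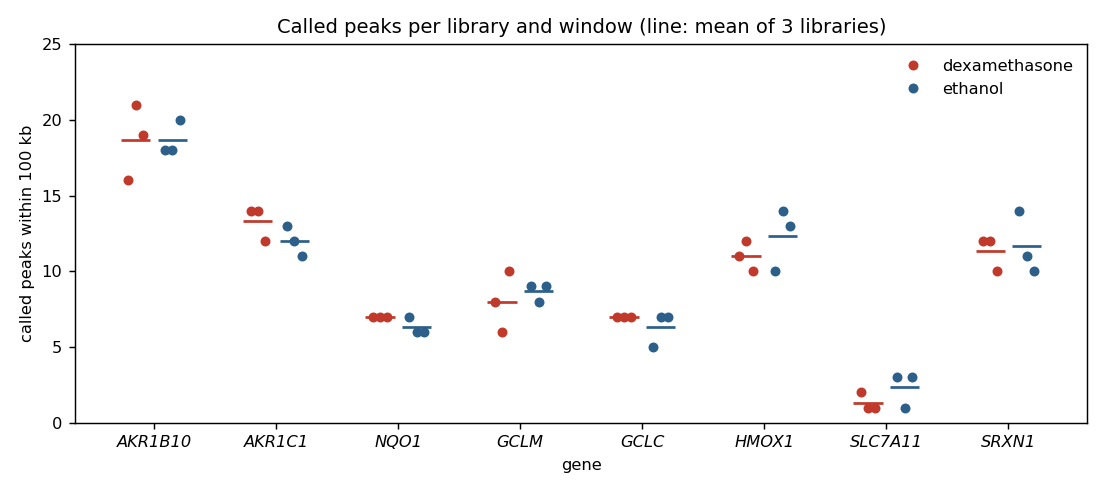
Number of called peaks within 100 kb of each gene start, 1 point per library, 3 dexamethasone libraries left of 3 ethanol libraries, with the mean as a line. The treatments overlap or touch at every gene; AKR1B10 has 16 to 21 peaks per library and SLC7A11 1 to 3.

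Calls in every dexamethasone library and in 0 of 3 ethanol libraries were found for 3 of the 104 regions (2.88%), against 1.1% of all merged regions. The reverse pattern was found in 0 of 104, against 0.662% of all. With 104 regions these shares rest on 3 calls and no region can reach a p below 0.1, so nothing particular to these genes is read from them. With equally numbered libraries taken as pairs, 7 regions were called with dexamethasone alone in at least 2 pairs and with ethanol alone in none (6.73%, against 4.47% of all), and 5 had the reverse pattern (4.81%, against 4.8% of all). That pairing rule is looser than the unpaired one. More dexamethasone than ethanol libraries had a peak in 19 regions (18.3%, against 19.7% of all), and more ethanol than dexamethasone libraries in 24 (23.1%, against 22.5% of all).

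None of the 3 regions gained with dexamethasone was near a start, and all were weak within their lists. In the AKR1C1 window one lay 62.4 kb downstream of the start on chromosome 10 at 5067618 to 5068080, with folds of 5.43, 4.62 and 5.76 and percentiles of 27.6, 6.31 and 31.7 in dexamethasone libraries 1 to 3. Another lay 21.9 kb downstream at 5027186 to 5027533, with folds of 3.67, 4.05 and 3.86 and percentiles of 4.40, 7.80 and 3.19. The nearest ethanol peaks were 3.28 and 2.98 kb from them.

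The GCLC window held the third such region 80.1 kb downstream on chromosome 6 at 53329676 to 53330017, with folds of 6.63, 4.60 and 7.02 and percentiles of 31.0, 3.15 and 35.0. Its nearest ethanol peak was 26.9 kb away. Dexamethasone library 2 gave the lowest percentile there, and its peak was no longer listed when every list was shortened to 58281 peaks. The mean percentiles of the 3 regions, 5.13, 21.9 and 23.0, compare with a median of 24.7 over all 897 regions of this pattern in the series.

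Among the 54 regions called in all 6 libraries, percentiles were higher after dexamethasone without overlap in 2 (3.70%, against 5.09% of all such regions) and lower without overlap in 2 (3.70%, against 6.4%). With lists of one length the counts were 4 and 1. None of the 8 start regions was among the 2 higher and 2 lower regions. Within equally numbered pairs, 8 of the 54 were higher with dexamethasone in 3 of 3 pairs (14.8%, against 12.8% of all such regions) and 6 were lower in 3 of 3 pairs (11.1%, against 16.2%), again with no start region. The mean percentile was higher with dexamethasone in 27 of the 54. The median difference, dexamethasone minus ethanol, was −0.077 points over the 54 and −0.43 points over all regions called in all 6 libraries. The median of the mean percentile was 68.3 over the 54 and 64.3 over all such regions. By fold in place of −log10 q the counts were 3 (against 5.68% of all such regions) and 0 (against 6.43%), and both regions found higher by −log10 q were among the 3.

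The region 16.7 kb upstream of HMOX1, on chromosome 22 at 35760276 to 35760543, had the widest separation. Its percentiles were 40.8, 38.5 and 42.0 with dexamethasone and 14.1, 19.0 and 20.0 with ethanol, and its folds were 7.67, 7.26 and 7.74 with dexamethasone and 5.52, 5.99 and 5.61 with ethanol. Every dexamethasone value stood above every ethanol value, with a gap of 18.5 points between the nearest ones. Of all 39934 regions called in all 6 libraries, 123 (0.308%) had a gap as wide in this direction. It was picked here for its gap, so no test is given. The separation remained with a −log10 q of at least 5, with lists of one length, with peaks joined across 100 bp and with a cover of at least 50%. These settings drop the weakest peaks or regroup peaks and shift percentiles little. They could hardly close a gap this wide, so nothing is concluded from them.

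The other separated regions had narrow gaps. A region 94.9 kb upstream of AKR1B10, on chromosome 7 at 134117129 to 134117843, had percentiles of 88.3, 89.4 and 93.5 with dexamethasone and 86.5, 86.4 and 85.4 with ethanol, a gap of 1.82 points. A region 53.5 kb upstream of AKR1B10, at 134158561 to 134159125, was lower with 44.8, 10.5 and 21.7 with dexamethasone against 53.8, 45.7 and 49.7 with ethanol, a gap of 0.86 points that closed with lists of one length. The region about 50 kb downstream of HMOX1, at 35826850 to 35827307, had 81.21, 69.9 and 75.7 with dexamethasone and 81.22, 83.6 and 85.8 with ethanol, so that dexamethasone library 1 and ethanol library 1 were all but equal.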

How the data were processed

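Peaks were deposited as 1 list per library in narrowPeak layout, hg19; per the submitters' processing notes, MACS2 2.1.0, CASAVA 1.3, bedtools and Bowtie were used, with no settings stated. In that layout the deposited ratio is a peak's fold enrichment against background as the caller estimated it, and the deposited p-value and q-value are given as −log10. The deposited score is the −log10 q times 10 and was not used, and the deposited summit offset is one of the other values. A list's lowest −log10 q was 2.51 to 2.71.

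Here peaks were merged, counted as called per library, and ranked by −log10 q within each list with Python 3.11.15, pandas 2.3.3 and SciPy 1.17.1, after tests on simulated data. Where a library had several peaks in a region, the strongest was used. Gene starts came from the selection rule. Peak numbers were compared by an exact permutation test, and alternatives are listed in the closing section. The regions named were, by rule, the start region, the strongest region, those called in 1 treatment alone, separated shared regions and those within 10 kb of a start called in at least 3 libraries; others were named after their values were seen, as were the alternatives for separated regions. Genes, rules and motif lists were chosen with earlier results of these data known. The list of further NRF2 pathway genes was not analysed here, since no hg19 annotation was used. Over regions called in all 6, equally numbered libraries deviated together from their treatment means. Their r was 0.218, 0.122 and 0.160 for numbers 1 to 3. Unequally numbered libraries gave r of −0.179 to −0.00075. Deviations from a treatment mean cancel within the treatment, so these r values depend on one another. On this ground equally numbered libraries were treated as pairs in the replicate block, but the labels do not state a pairing. At most 0.0463% of peak intervals were identical between any 2 lists.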

Additional observations from a re-analysis of the deposited data

How the results depend on the processing

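All 8 starts kept a region called in all libraries in each alternative run for them, and the median start percentile stayed between 79.9 and 81.3. Leaving out a library, joining peaks or dropping the weakest peaks could hardly undo such calls, so this is a description only. Within 50 kb instead of 100 kb there were 56 regions instead of 104, 62.5% of them called in all 6 libraries instead of 51.9%, a difference of 0.67 peaks, 1 dexamethasone-only region and 1 separated region in each direction. A smaller window holds fewer regions by construction, and the cause of the other changes was not tested. With the replicate block the peak difference was unchanged at −0.67 (exact sign-flip permutation p = 1, smallest possible 0.25), and the looser pair rule counted 7 regions for dexamethasone and 5 for ethanol, some of them with a peak in 1 library of the other treatment. By pairs, 8 shared regions were higher and 6 lower after dexamethasone. With lists of one length, 4 shared regions were higher and 1 lower without overlap, and by fold 0 were lower. Leaving out 1 library gave differences of −1.83 to 0.17 peaks, 3 to 4 dexamethasone-only and 0 to 2 ethanol-only regions, the most without ethanol replicate 2, and 4 to 7 shared regions higher and 2 to 5 lower without overlap, since fewer libraries then need to agree. Read depth is unknown, so a missing peak cannot be told from a shallow library.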
